A study of Saccharomyces cerevisiae with 6 samples.

Results

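The methylcitrate cycle of budding yeast (Saccharomyces cerevisiae) is described here through its 3 dedicated genes, CIT3 (YPR001W), PDH1 (YPR002W) and ICL2 (YPR006C). They were taken from the count table by their locus names, 3 of 6007 protein-coding genes. All 3 passed the minimum for testing, a mean of 1 TPM over all 6 libraries (TPM is a transcript's length-scaled share of its library). CIT3 averaged 0.556 TPM in log cells, so it passed only through its quiescent libraries. The set was chosen from the reads that quiescent and log-phase cells gave for these genes, so that contrast is given for them as a description, without a test. RNA-seq was made from 3 libraries of log-phase cells, harvested at an OD600 of 0.8 to 1.0, and 3 libraries of quiescent cells, the dense fraction of the same strain's stationary culture at day 7, purified on Percoll gradients. The labels call the replicates biological.

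Both groups carried strain YCH406. Per the labels it is MATa, lacks the chromosomal HTA1-HTB1 and HTA2-HTB2 histone gene pairs, and bears his3, leu2, ura3 and trp1 auxotrophies and a 9Myc tag on RPB3, a subunit of RNA polymerase II. Its histones H2A and H2B came from the plasmids pSAB6 (HTA1-HTB1) and pZS145 (HTA1-Flag-HTB1). Cells grew at 30 C in YPD, a rich glucose medium, with added adenine and ampicillin. Non-quiescent cells of the stationary culture were not analysed here, so values for quiescent cells are not separated from those of other cells of the same age.

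Propionyl-CoA is a 3-carbon thioester that arises from odd-chain fatty acids and from the breakdown of some amino acids. In yeast mitochondria the methylcitrate cycle disposes of it. Cit3, a synthase that accepts propionyl-CoA as well as acetyl-CoA, joins it to oxaloacetate as methylcitrate. Pdh1, the putative methylcitrate dehydratase, removes water, an aconitase adds water back, and Icl2, the methylisocitrate lyase, splits the product into succinate and pyruvate. Glucose is known to repress many genes for the use of other carbon sources.

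The 6 libraries held 8894585 to 14213993 counts. The labelled states were visible in their marker lists. These lists were made with earlier results of these data known, so their sums are a description only. The 10 stationary-phase markers summed to 81.2 to 91.7 normalized CPM (counts scaled to library size with TMM factors) in log libraries and 6317 to 8588 in quiescent libraries. The 10 growth markers, among them ribosomal protein, cyclin and plasma membrane proton pump genes, summed to 13603 to 16587 and 797 to 994. The 6 markers of mating type a summed to 703 to 958 and 45.1 to 49.5, and the 4 markers of the alpha type to 23.2 to 26.2 and 34.0 to 41.3. No marker had 0 reads throughout a group. The part of any cell mixture in the results below was not tested.

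All 3 genes had few reads in log-phase cells and many in quiescent cells. CIT3 had the steepest difference, from 1.77 ± 0.536 to 815 ± 384 normalized CPM (SD, n = 3 each), PDH1 went from 6.05 ± 0.892 to 339 ± 159, and ICL2 from 7.54 ± 1.92 to 195 ± 59.6. In none of them did the groups overlap, as in 33.8% of all 5608 tested genes with every quiescent library above every log library. Among the same genes, tested with edgeR's quasi-likelihood test, 72.8% passed an adjusted p of 0.05, 31.8% upward and 41.0% downward in quiescent cells. Nothing is read from those shares for these 3, since they were picked from the same contrast. Levels are shares of each library, so a rise or fall is relative to its other RNA and gives no amount per cell. A change in the RNA of a cell and a change in the number of cells that carry it cannot be told apart.

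CIT3, the methylcitrate synthase gene, had 33, 21 and 17 reads in log replicates 1, 2 and 3, which is 2.31, 1.75 and 1.24 normalized CPM. It had 9757, 4316 and 10193 reads in quiescent replicates 1, 2 and 3, or 973, 377 and 1094 normalized CPM. Every quiescent library was at least 163 times above every log library, and the lowest of them was replicate 2. The fitted log2 fold change was 8.84 (SE 0.53), a 458-fold difference and the 10th highest of the 5608 genes. The 17 reads of log replicate 3 carry an exact Poisson 95% interval of 9.90 to 27.2 reads, for counting error only, so the size of this fold rests on few reads.

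PDH1, the dehydratase gene, had 79, 85 and 76 reads in log replicates 1, 2 and 3 (5.53, 7.08 and 5.54 normalized CPM). It had 4574, 1803 and 3750 reads in quiescent replicates 1, 2 and 3 (456, 157 and 402 normalized CPM). The log libraries lay close together and quiescent replicate 2 was again the lowest of its group. The log2 fold change was 5.81 (SE 0.42), a 56.0-fold difference and rank 85 among the genes.

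ICL2, the lyase gene, had 78, 95 and 127 reads in log replicates 1, 2 and 3 (5.46, 7.91 and 9.25 normalized CPM). It had 2414, 1461 and 2017 reads in quiescent replicates 1, 2 and 3 (241, 128 and 216 normalized CPM). Quiescent replicate 2 was once more the lowest, and it was still 13.8 times the highest log library. The log2 fold change was 4.69 (SE 0.32), a 25.8-fold difference and rank 139.

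The size of these values depended on the scale. On log2(TPM + 1) with limma, the differences were 6.23 for CIT3, 4.05 for PDH1 and 3.11 for ICL2, while the median of all genes moved from -0.21 to -0.98. That shift of the median bears on every gene named below. Protein-coding genes held 64.1% to 72.1% of counts in log libraries and 28.1% to 41.4% in quiescent libraries. The part of this difference in the shift was not tested.

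**Figure D1:**
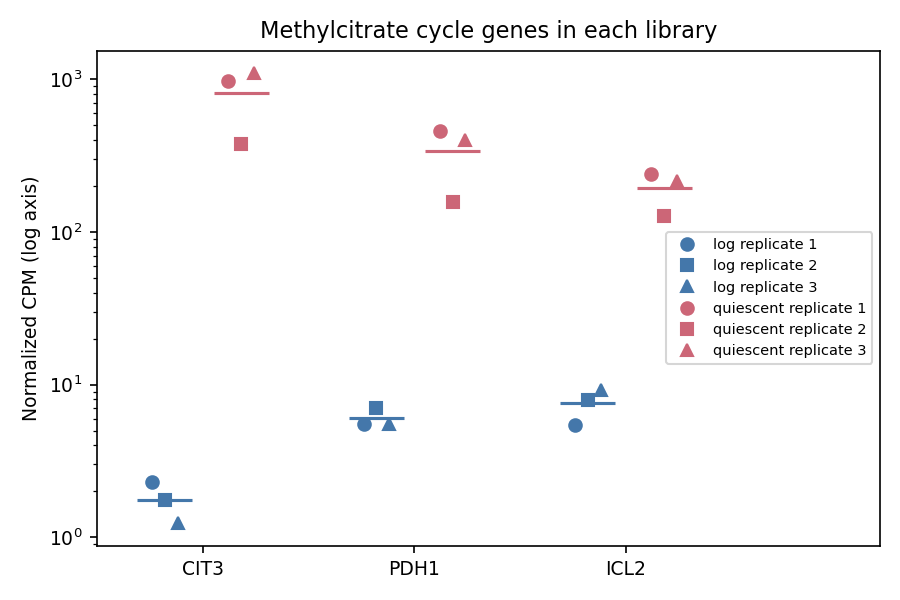
Normalized CPM of CIT3, PDH1 and ICL2 on a log axis, with 1 point per library (circles, squares and triangles are replicates 1, 2 and 3) and lines at the group means. The quiescent libraries lie far above the log libraries in each gene, and quiescent replicate 2 is the lowest quiescent point for all 3.

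The 3 genes also changed rank among themselves. Levels between genes are compared as TPM, which is per length. In log cells CIT3 was the lowest of the 3 in every library, at 0.713, 0.554 and 0.400 TPM in replicates 1, 2 and 3. PDH1 had 1.61, 2.11 and 1.69 TPM there and ICL2 1.42, 2.12 and 2.53 TPM, and these genes did not keep an order between them. In quiescent cells the order was CIT3, then PDH1, then ICL2 in all 3 libraries. CIT3 had 189, 62.2 and 130 TPM in replicates 1, 2 and 3, PDH1 had 83.2, 24.5 and 45.2 TPM, and ICL2 had 39.4, 17.8 and 21.8 TPM.

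Ratios within a library do not depend on how libraries are scaled. The TPM ratio of CIT3 to PDH1 was 0.443, 0.262 and 0.237 in log replicates 1, 2 and 3. It was 2.26, 2.54 and 2.89 in quiescent replicates 1, 2 and 3, above 1 in each. The ratio of CIT3 to ICL2 went from 0.307 ± 0.175 to 4.75 ± 1.24 (SD, n = 3 each). The ratio of PDH1 to ICL2 moved less, from 0.931 ± 0.238 to 1.85 ± 0.414, again with no overlap. By TPM rank among the 6007 protein-coding genes, CIT3 stood at 5551 to 5743 in log libraries and at 47 to 149 in quiescent libraries. PDH1 went from ranks of 5080 to 5189 to ranks of 131 to 471, and ICL2 from 4798 to 5264 to 339 to 695.

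Quiescent replicate 2 gave less of all 3 genes than the other quiescent libraries. The mean of replicates 1 and 3 was 2.74 times replicate 2 for CIT3, 2.73 times for PDH1 and 1.79 times for ICL2. On log2(CPM + 1) the shortfall was -1.45, -1.44 and -0.83, where the median of all tested genes was 0.02. Only 0.553% of tested genes had a lower value than CIT3, 0.606% than PDH1 and 5.14% than ICL2. The ratio of CIT3 to PDH1 in that library, 2.54, lay between those of the other quiescent libraries, so this pair was low there by a like factor.

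The other gene lists were mixed in that library. The isozyme and glyoxylate cycle lists share CIT2 and ICL1. Replicate 2 was the lowest quiescent library for 12 of 12 genes of peroxisomal beta-oxidation (median -0.65), 4 of 4 of the carnitine shuttle (median -0.70) and 8 of 10 stationary markers (median -0.57). It was the lowest for all 3 isozyme genes (median -0.57), 4 of 8 genes of 2-oxobutanoate (median -0.15), 2 of 4 of acyl-CoA entry and aconitase (median -0.21) and 4 of 7 of the glyoxylate cycle (median -0.37). It was also the lowest for 5 of 13 genes for the use of succinate and pyruvate, 4 of 18 carbon source regulators and 35.7% of all tested genes. Summed stationary markers in quiescent replicates 1, 2 and 3 were 7713, 6317 and 8588 normalized CPM. Summed growth markers were 994, 944 and 797, and protein-coding genes held 41.4%, 31.8% and 28.1% of counts, so replicate 2 was the lowest only in the first of these. The part of these differences in the result was not tested. Without quiescent replicate 2, the log2 fold changes were 9.18 (CIT3), 6.15 (PDH1) and 4.92 (ICL2).

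**Figure D2:**
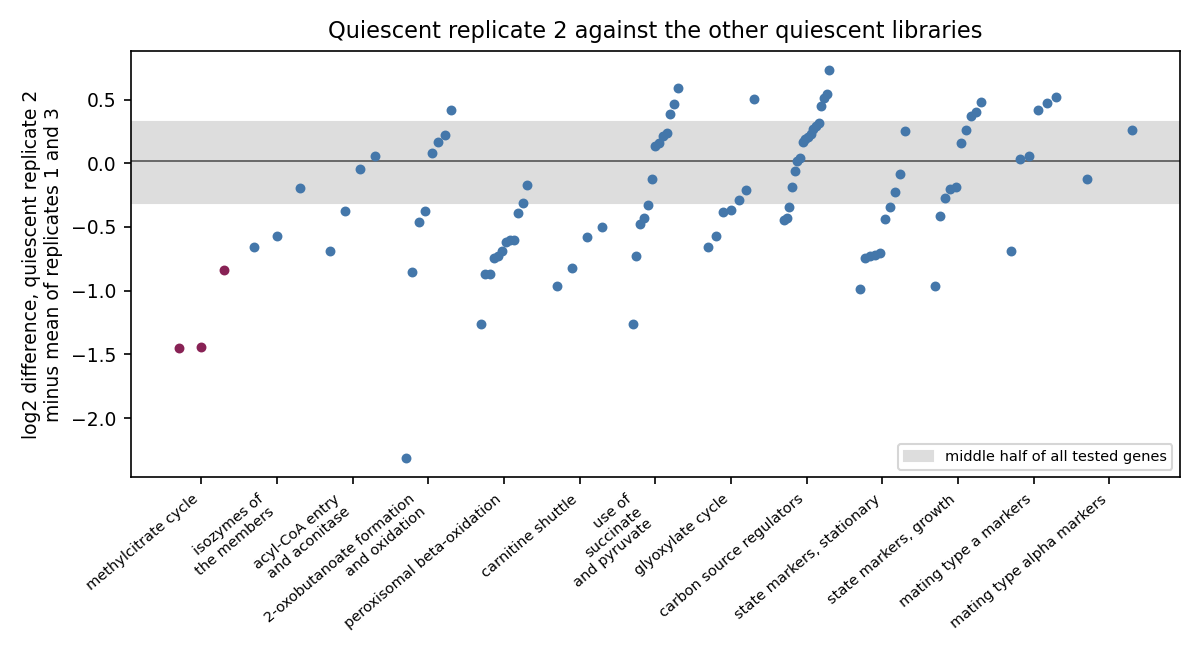
Difference on log2(CPM + 1) between quiescent replicate 2 and the mean of quiescent replicates 1 and 3, with 1 point per gene, by gene list. The grey band spans the quartiles of all tested genes, -0.31 to 0.33, and its line is their median of 0.02, and the methylcitrate cycle genes lie at -1.45, -1.44 and -0.83.

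The genes for related enzymes outside the cycle, CIT1, CIT2 and ICL1, rose too (3 of 3, median 3.84), where 31.8% of all genes rose. CIT1 and CIT2 had smaller fold changes than CIT3, and ICL1 had one near that of ICL2. CIT1, the citrate synthase of the tricarboxylic acid cycle, went from 79.5 ± 17.2 to 220 ± 19.4 normalized CPM (SD, n = 3 each), a log2 fold change of 1.47 (SE 0.21, edgeR adjusted p = 0.00014). That call was lost with limma on log2(TPM + 1) (0.46, adjusted p = 0.218). CIT2, the peroxisomal citrate synthase of the glyoxylate cycle, rose by 3.84 (SE 0.28, edgeR adjusted p = 9.33e-07). ICL1, the cytosolic isocitrate lyase, rose by 5.31 (SE 0.44, edgeR adjusted p = 2.72e-06).

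CIT3 took a far larger part of the citrate synthase transcripts in quiescent cells. Its share of the TPM of CIT1, CIT2 and CIT3 was 1.55%, 1.10% and 1.10% in log replicates 1, 2 and 3. It was 48.0%, 32.1% and 45.7% in quiescent replicates 1, 2 and 3. CIT1 held 57.3% ± 2.87 and then 12.9% ± 3.93, while the share of CIT2 overlapped between the groups at 41.5% ± 2.94 and 45.2% ± 4.89 (SD, n = 3 each). In TPM, CIT3 exceeded CIT1 in all 3 quiescent libraries, by 4.35, 1.85 and 4.49 times in replicates 1, 2 and 3, and stood at 0.0185 to 0.0268 times CIT1 in log libraries. CIT3 and CIT2 did not keep an order in quiescent cells, with ratios of 1.17, 0.634 and 1.03.

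The isocitrate lyase family showed no such shift. ICL2 held 29.9%, 26.4% and 53.5% of the summed TPM of ICL1 and ICL2 in log replicates 1, 2 and 3. The quiescent libraries, in the same order, gave 34.0%, 23.4% and 20.9%, and the groups overlapped. The high log value is replicate 3, where ICL1 had 107 reads against 177 and 256 in replicates 1 and 2 and ICL2 had its highest log count.

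**Figure D3:**
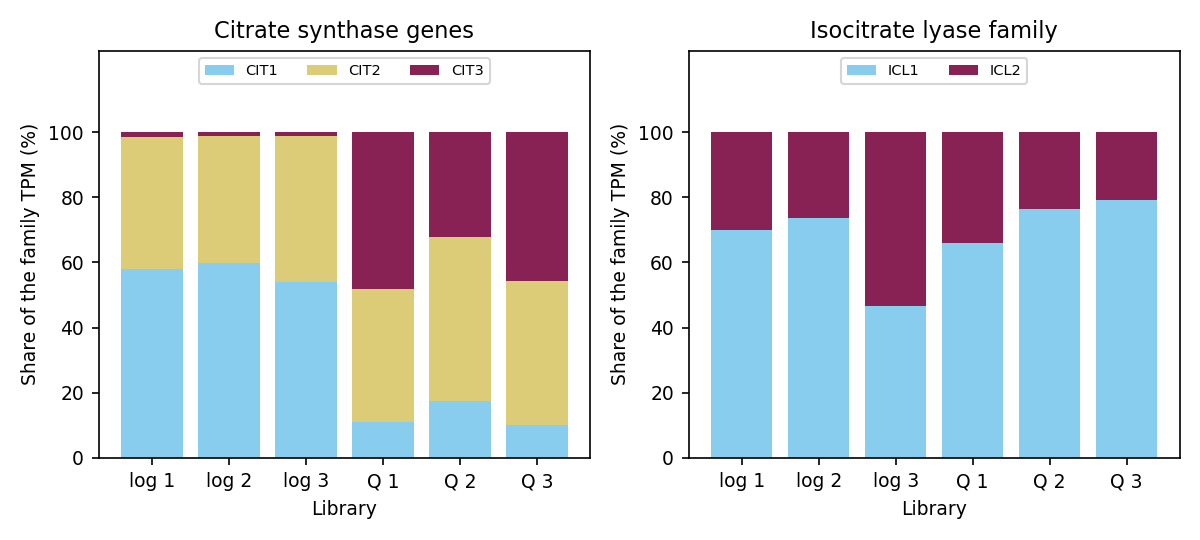
Share of each gene in the summed TPM of its family, as stacked bars for each of the 6 libraries, with citrate synthase genes on the left and isocitrate lyase genes on the right (Q, quiescent). CIT3 is a thin band of 1.10% to 1.55% in log libraries and 32.1% to 48.0% in quiescent libraries, while the ICL2 share overlaps between the groups.

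Reads of these families can be told apart by sequence. At the protein level, from the R64 coding sequences, Cit3 was identical to Cit1 at 48.2% of 452 aligned residues and to Cit2 at 45.8% of 456. Cit1 and Cit2 were identical at 78.7% of 460. Icl2 was identical to Icl1 at 43.4% of 532. No stretch of 25 bases in the coding sequence of CIT3, PDH1 or ICL2 occurred anywhere else in the R64 genome on either strand, and no annotated gene overlapped them.

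The genes for acyl-CoA entry and for aconitase did not share one direction. Of 4 acyl-CoA entry and aconitase genes, 2 rose and 2 fell by edgeR's quasi-likelihood test over all rows, where 31.8% of all genes rose and 41.0% fell. ACS1, an acetyl-CoA synthetase gene, went from 10.1 ± 3.53 to 3061 ± 802 normalized CPM, 8.24 on the log2 scale (SE 0.45, edgeR adjusted p = 1.95e-07). ACS2, the second synthetase gene, went the other way, from 492 ± 41.5 to 13.6 ± 3.18 normalized CPM (-5.17, SE 0.26, edgeR adjusted p = 1.51e-07). ACH1, a mitochondrial CoA transferase gene, rose by 2.89 (SE 0.20).

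ACO1, an aconitase gene, fell. It had 724, 919 and 751 normalized CPM in log replicates 1, 2 and 3. It had 347, 349 and 323 in the quiescent libraries, in that order, a log2 fold change of -1.23 (SE 0.21, edgeR adjusted p = 0.000403). Per length, ACO1 at 24.1 to 42.0 TPM in quiescent libraries was below CIT3 in the same libraries and overlapped the range of ICL2.

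Of the lists around the supply of propionyl-CoA, genes of fatty acid oxidation rose and 6 of 8 genes around 2-oxobutanoate fell. In peroxisomal beta-oxidation, 11 of 12 genes rose and none fell (median 5.30, against -0.21 for all genes). POT1, the thiolase gene, rose by 8.56 (SE 0.44), and POX1, the acyl-CoA oxidase gene, rose by 8.09 (SE 0.35). FAA4, a fatty acyl-CoA synthetase gene, was the 1 that did not pass, at -0.31 (SE 0.30), and it was called downward on log2(TPM + 1) (-1.29).

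All 4 carnitine shuttle genes, which serve the transfer of acyl groups between compartments, rose (median 6.24). CAT2, the carnitine acetyltransferase gene of peroxisomes and mitochondria, rose by 7.35 (SE 0.37), and CRC1, the mitochondrial carnitine carrier gene, rose by 6.36 (SE 0.30).

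Of 8 genes that form or oxidize 2-oxobutanoate, the keto acid from threonine and cystathionine, 6 fell and 1 rose (median -1.77), where 41.0% of all genes fell. Of the 6, 4 encode pyruvate dehydrogenase subunits. CYS3, the cystathionine gamma-lyase gene, fell by 6.01 (SE 0.29), and ILV1, the biosynthetic threonine deaminase gene, fell by 3.55 (SE 0.30). The E1 and E2 subunit genes of pyruvate dehydrogenase, PDA1 (-1.76), PDB1 (-1.91) and LAT1 (-1.78), and its E3 gene LPD1 (-1.31) also fell. They are named as the rest of the list, after their values were seen. The riser was CHA1, the catabolic threonine deaminase gene, at 1.27 (SE 0.51, edgeR adjusted p = 0.0471), whose groups overlapped and whose quiescent replicates 1, 2 and 3 had 173, 34.5 and 177 normalized CPM. Its call was lost without log replicate 1, 2 or 3 or quiescent replicate 1 or 3, at adjusted p of 0.0507 to 0.163, and without quiescent replicate 2 it was 1.72 (adjusted p = 0.00031). PDX1, for a subunit that holds E3 in the complex, did not pass at 0.03 (SE 0.22) and was called downward on log2(TPM + 1) (-0.91, adjusted p = 0.0131).

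Past the cycle, genes that use its products were split. Of 13 genes for the use of succinate and pyruvate, 7 rose and 4 fell (median 1.09). MPC3, a subunit gene of the mitochondrial pyruvate carrier, rose by 7.30 (SE 0.31), and PCK1, the gluconeogenic carboxykinase gene, rose by 7.00 (SE 0.40). The 4 that fell, named after their values were seen, were the malic enzyme gene MAE1 (-3.33), the pyruvate carrier subunit gene MPC2 (-2.17), the pyruvate carboxylase gene PYC2 (-2.04) and the fumarase gene FUM1 (-1.35).

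In the parallel glyoxylate cycle, which serves 2-carbon units, 6 of 7 genes rose (median 3.84). CIT2 and ICL1 are among these risers and were also counted in the isozyme list. SFC1, the succinate-fumarate carrier gene, rose by 6.14 (SE 0.38), and MLS1, the malate synthase gene, by 6.02 (SE 0.31). DAL7, a second malate synthase gene that serves allantoin use, did not pass at -0.17 (SE 0.32) and was called downward on log2(TPM + 1) (-0.79).

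Of 18 regulators of carbon source and stress responses, 13 rose and none fell (median 1.35), with the activator genes SIP4 at 5.93 (SE 0.39) and CAT8 at 4.58 (SE 0.23). On log2(TPM + 1) this list read 6 risen and 4 fallen, where 799 of all 5608 genes rose and 3372 fell. Read against the 31.8% of all genes that rose, the counts for fatty acid oxidation, the carnitine shuttle, the glyoxylate cycle, the use of succinate and pyruvate and the regulators were above it. That for the 2-oxobutanoate list was below it. Of the succinate and pyruvate genes, 4 of 13 fell, below the 41.0% of all genes. Some risen genes had a mean below 1 TPM in log cells, so they passed the minimum only through their quiescent libraries. Among them were POT1 (0.503 TPM), POX1 (0.391), CRC1 (0.663), SFC1 (0.679), MLS1 (0.802), SIP4 (0.794) and PCK1 (0.993). The lists were made with earlier results of these data known, so no test of a list was run.

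**Figure D4:**
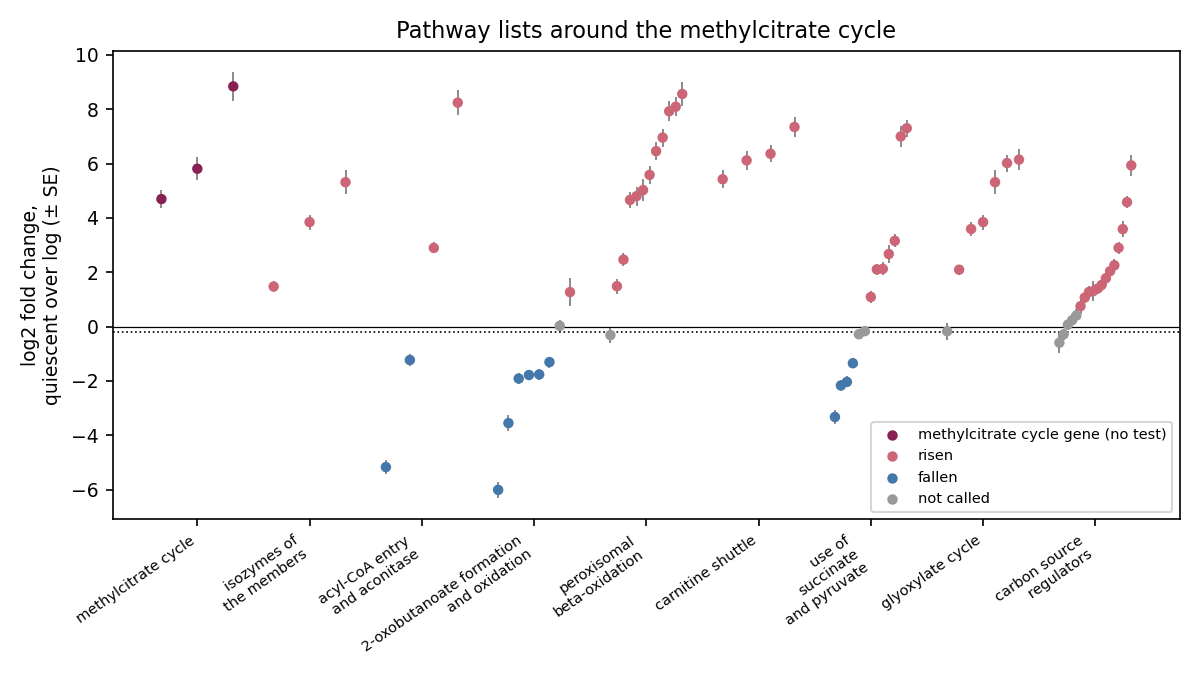
Log2 fold change of quiescent over log cells with SE bars from the edgeR fit, with 1 point per gene in each list, sorted within the list, and a dotted line at the median of all genes (-0.21). The methylcitrate cycle genes, at 4.69, 5.81 and 8.84, stand beside beta-oxidation genes at -0.31 to 8.56 and carnitine shuttle genes at 5.42 to 7.35, and ACO1 and most 2-oxobutanoate genes lie below 0.

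The 3 genes share a stretch of chromosome XVI. In the R64 annotation CIT3 lies at chrXVI:556377-557837 on the plus strand, PDH1 at chrXVI:558385-559935 on the plus strand and ICL2 at chrXVI:567269-568996 on the minus strand. All 3 are single-exon genes, so the spans are coding sequence, and the table's lengths of 1460, 1550 and 1727 are 1 base below them. From the start of CIT3 to the far end of ICL2 the stretch is 12620 bases. CIT3 and PDH1 are direct neighbours with 547 bases between them, and 7333 bases with other genes lie between PDH1 and ICL2.

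The genes around them differed in direction. Of 9 protein-coding neighbours, those inside the stretch and 3 on each side, 6 rose and 1 fell by the edgeR test (median 1.28), where 31.8% of all genes rose and 41.0% fell, and all lay below the 3 methylcitrate cycle genes. Between PDH1 and ICL2, YPR003C, a putative sulfate permease gene, rose by 1.28 (SE 0.20, edgeR adjusted p = 0.000237), a call lost on log2(TPM + 1) (0.20, adjusted p = 0.441). AIM45, for a putative electron transfer flavoprotein subunit, went from 72.5 ± 9.50 to 8.70 ± 3.26 normalized CPM (-3.05, SE 0.27, edgeR adjusted p = 4.63e-06). HAL1, a salt tolerance gene, rose by 2.91 (SE 0.35, edgeR adjusted p = 3.54e-05).

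Beyond ICL2, the meiotic cohesin gene REC8 rose by 2.57 (SE 0.33) and HAA1, an activator of weak acid responses, by 1.90 (SE 0.23). REC8 averaged 0.903 TPM in log cells, so it passed the minimum for testing only through its quiescent libraries. SUT2, for a sterol uptake regulator, was at -0.68 (SE 0.29, edgeR adjusted p = 0.0567) and passed downward in 6 settings. On the other side of CIT3, across the centromere, the histone acetyltransferase gene HAT1 was at -0.02 (SE 0.24, edgeR adjusted p = 0.94). It was called downward on log2(TPM + 1) (-0.92, adjusted p = 0.00377). The ESCRT-II gene SNF8 rose by 0.96 (SE 0.29, edgeR adjusted p = 0.0128) and ULA1 by 2.20 (SE 0.26). The SNF8 call was lost with total-count scaling (0.72, adjusted p = 0.0676), and its value was -0.04 on log2(TPM + 1).

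**Figure D5:**
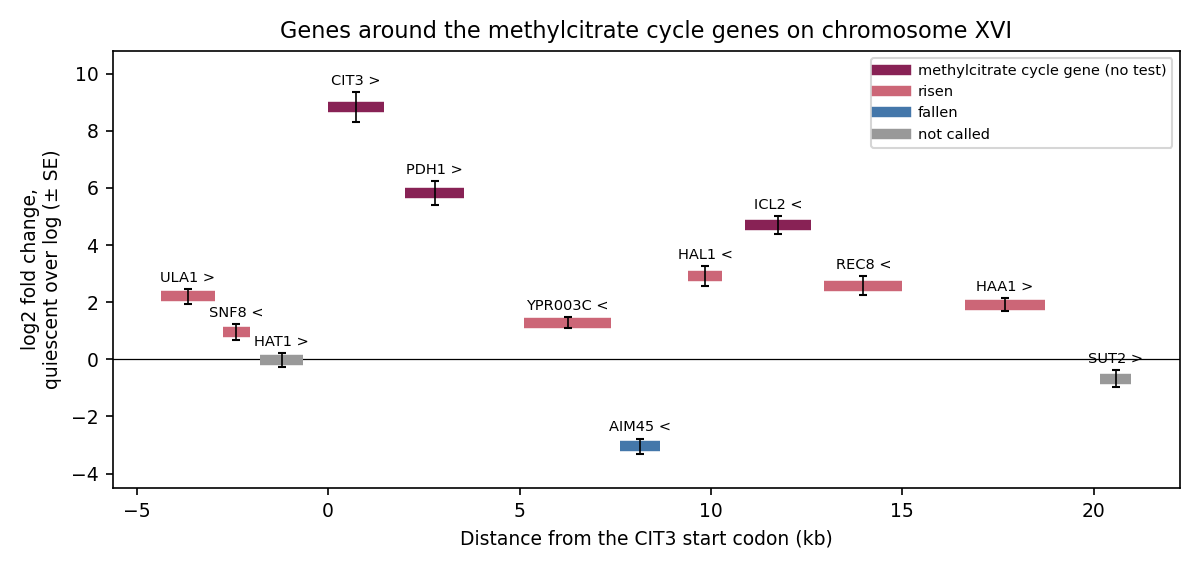
Log2 fold change with SE for each protein-coding gene (bar to scale) against its distance in kb from the start codon of CIT3, with the strand marked > for plus and < for minus. CIT3, PDH1 and ICL2 at 8.84, 5.81 and 4.69 stand above their neighbours, which run from -3.05 to 2.91.

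The promoters are shown because the 3 genes were high in the same libraries and CIT3 and PDH1 lie side by side. Each sequence runs from 250 bases before the start codon through its first 50 bases, 5′ to 3′ on the strand of the gene, from the R64 RefSeq genome at chrXVI:556127-556426 (plus), chrXVI:558135-558434 (plus) and chrXVI:568947-569246 (minus). Capitals mark a CCAAT box, read here on the opposite strand, and a run shared by CIT3 and PDH1.
CIT3: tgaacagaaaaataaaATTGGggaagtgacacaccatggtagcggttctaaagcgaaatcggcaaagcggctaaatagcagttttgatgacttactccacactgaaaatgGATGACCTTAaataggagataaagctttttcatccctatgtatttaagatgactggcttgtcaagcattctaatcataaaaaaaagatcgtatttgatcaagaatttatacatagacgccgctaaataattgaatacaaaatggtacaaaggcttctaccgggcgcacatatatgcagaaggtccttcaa
PDH1: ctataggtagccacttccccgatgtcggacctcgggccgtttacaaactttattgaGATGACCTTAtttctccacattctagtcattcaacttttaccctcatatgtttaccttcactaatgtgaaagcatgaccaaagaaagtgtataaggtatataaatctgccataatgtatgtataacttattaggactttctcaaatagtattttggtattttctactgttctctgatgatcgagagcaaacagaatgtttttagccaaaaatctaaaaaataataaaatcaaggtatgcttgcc
ICL2: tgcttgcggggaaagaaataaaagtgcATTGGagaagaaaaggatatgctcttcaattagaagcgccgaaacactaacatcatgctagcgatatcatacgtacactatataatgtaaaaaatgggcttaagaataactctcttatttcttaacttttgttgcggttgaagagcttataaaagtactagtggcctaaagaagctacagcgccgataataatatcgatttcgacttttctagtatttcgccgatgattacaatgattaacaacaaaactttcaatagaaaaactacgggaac

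Of the 4 motifs searched, those of known regulators of carbon use and stress, only CCAAT had a match in these windows. Both strands were searched, and the motifs do not overlap each other here. CCAAT, the letters bound by the Hap complex, was found once in CIT3, at -234 to -230 with the A of the start codon at 0, and once in ICL2, at -223 to -219. It was absent from the PDH1 window, and 43.3% of all 6020 promoters of this length hold it. The stress response element AGGGG (21.6% of promoters), the carbon source response element in its strict consensus (0.0831%) and the oleate response pair, CGG and CCG with 15 to 18 bases between (4.09%), had no match in the 3 windows.

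The longest run shared between any 2 of the 3 windows was GATGACCTTA, at -140 to -131 in CIT3 and -194 to -185 in PDH1 on the same strand. It was picked after the sequences were seen. It occurs in 6 of 6020 promoters (0.0997%), and the other 4 went different ways. DBP1 rose by 4.09 (SE 0.20), ACL4 fell by 1.71 (SE 0.21), GIS2 fell by 2.63 (SE 0.23), and MRP51, the neighbour of DBP1, did not pass at -0.11 (SE 0.20; on log2(TPM + 1) it was called at -1.04). A match is a run of letters and does not show that a protein binds it.

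The genes whose profiles were nearest to each of the 3 were not the other methylcitrate cycle genes. Likeness was the root mean square difference of log2(CPM + 1) profiles over the 6 libraries, after each gene's mean was removed. It is a description, since any gene with a change of the same size comes near. The 5 genes nearest to CIT3 were ACS1 (0.31), TMA10 (0.32), the hydrophilin gene SIP18 (0.32), the beta-oxidation gene FOX2 (0.34) and PHM7 (0.34). The nearest to PDH1 were the peroxisomal import receptor gene PEX9 (0.13), the decarboxylase gene ARO10 (0.21), CRF1 (0.26), the enoyl-CoA isomerase gene ECI1 (0.29) and the phosphate transporter gene PHO89 (0.29). With log2(CPM + 0.1), 3 of these 5 remained among the 5 nearest to PDH1, without PEX9 and PHO89. Those of ICL2 were the phosphatase gene MIH1 (0.18), PXA2 (0.19), which encodes part of the peroxisomal fatty acid importer, the mitochondrial aldehyde dehydrogenase gene ALD4 (0.22), DCI1 (0.25) and the glycerol kinase gene GUT1 (0.27). Among the 3 genes themselves, PDH1 and ICL2 differed by 0.56, CIT3 and PDH1 by 1.33, and CIT3 and ICL2 by 1.84.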

How the data were processed

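RNA was depleted of ribosomal RNA and sequenced on an Ion Proton instrument, per the labels' protocols. The authors deposited raw read counts and a length for 9891 features, per the file headers, against the R64 genome (the submitters' processing notes). Aligner, counter and strandedness were not given in the sources used here, so antisense reads on the 3 genes cannot be told apart. A further 6 columns of per-sample TPM were not used, and TPM was recomputed from counts and lengths. Locus tags matched R64 for 6048 rows. The ERCC spike-in RNA named in the protocol was not used here.

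The 7305 rows with a mean of at least 1 TPM over all 6 libraries were tested with edgeR 4.0.16 (R 4.3.3). The quasi-likelihood test was two-sided, with TMM scaling, no covariate and Benjamini-Hochberg adjustment over all tested rows at 0.05. The standard error (SE) of a log2 fold change came from its F statistic. The fit was tested on simulated data. Shares and ratios are per-library TPM values. Protein identity came from global alignment (Biopython 1.88). P-values weigh the difference between the groups against the spread between these libraries, which was estimated with information from all tested rows.

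The genes and lists were chosen with earlier results of these data known. Named genes were the 3 genes, the isozyme, acyl-CoA entry and aconitase genes, the 2 called genes of largest change in the main direction of each other list (marker lists, given only as sums, not named), the chromosome XVI neighbours, and the 5 nearest profiles of each gene. Of these, 1 list gene is not reported here. Genes named outside this rule are marked or were the exceptions of a list. The alternatives were other scalings, filters of none or 10 TPM, DESeq2 1.42.0, log2(CPM + 0.1) for nearest profiles, limma 3.58.1 on log2(TPM + 1) and log2(TPM + 0.1), a block for replicate number, and fits that leave out 1 library.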

Additional observations from a re-analysis of the deposited data

How the results depend on the processing

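CIT3, PDH1 and ICL2 were higher in quiescent cells in all 15 alternatives. Leaving out 1 library in turn gave 8.60 to 9.18 for CIT3, 5.53 to 6.15 for PDH1 and 4.50 to 4.93 for ICL2. Outside 1 SD of the replicates lay limma on log2(TPM + 0.1), at 7.49, 4.58 and 3.59, limma on log2(TPM + 1), at 6.23, 4.05 and 3.11, and the filter of 10 TPM for ICL2, at 5.18. The median of all genes was -0.21 in the main fit, -1.21 on log2(TPM + 0.1) and -0.98 on log2(TPM + 1). The cause of these shifts was not tested. Shares of raw counts gave 1.29% and 43.0% for CIT3 and 37.3% and 26.8% for ICL2 in log and quiescent cells.

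Over all genes, 1781 rose and 2299 fell. The filter of 10 TPM, which tests fewer genes, gave 669 and 1001. Limma gave 799 risen and 3372 fallen on log2(TPM + 1), and 781 and 3333 on log2(TPM + 0.1). Leaving out 1 library gave 1589 to 1757 risen and 2105 to 2329 fallen. Total-count scaling gave 1370 and 2382, a lower share of upward calls, and TMM from protein-coding genes gave 2012 and 2080.

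The 1 riser among the 2-oxobutanoate genes became 0 with both limma fits, with no filter and with the replicate block, and 0 to 1 when a library was left out. CHA1 was at -0.0062 and -0.023 in the limma fits. Both limma fits gave 1 faller in beta-oxidation, 1 in the glyoxylate cycle and 1 alpha marker, and 6 risen and 4 fallen regulators. The filter of 10 TPM gave 7 risen regulators and 0 risen neighbours. It removed every neighbour that rose in the main fit, and some regulators such as CAT8, before testing. Those genes had no result there, so the lower counts do not show that their calls were lost. An alpha marker rose (1) with TMM from protein-coding genes and with no filter. Fallen neighbours numbered 3 in both limma fits and 2 with no filter, total-count scaling or the replicate block, and 1 to 2 when a library was left out.

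Of the named genes, these changed sign. HAT1, which had no call, was at 0.030 with DESeq2 and with median-of-ratios factors, at 0.19 with TMM from protein-coding genes, and at -0.23 to 0.16 when a library was left out. PDX1 was at -0.91 and -1.01 in the limma fits, -0.12 with no filter, -0.0072 with the replicate block and -0.16 with total-count scaling. FAA4 was at 0.18 and MRP51 at 0.37 with the filter of 10 TPM. DAL7 was at 0.036 and MRP51 at 0.10 with TMM from protein-coding genes. SNF8, called as risen at 0.96, was at -0.041 and -0.046 in the limma fits. When 1 library was left out, PDX1 ran from -0.24 to 0.17, DAL7 from -0.35 to 0.10 and FAA4 from -0.46 to 0.065. The cause of these changes was not tested. With log2(CPM + 0.1) in place of log2(CPM + 1), 4 of the 5 nearest profiles remained for CIT3, 3 for PDH1 and 4 for ICL2.

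Deviations of same-numbered libraries from the group means correlated at 0.124, -0.149 and -0.170 for numbers 1, 2 and 3. Those of differently numbered libraries ran from -0.155 to 0.258. With so few libraries, these values cannot settle whether same-numbered libraries were paired. With the replicate block, 1681 genes rose and 2248 fell, and CIT3, PDH1 and ICL2 were at 8.74, 5.69 and 4.67. The log-phase levels of CIT3 rest on 17 to 33 reads per library, which limits the precision of its fold.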
